A study of Homo sapiens with 27 samples.

Results

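The plexins and neuropilins described here are 10 genes, PLXNA1, PLXNA2, PLXNA3, PLXNA4, PLXNB1, PLXNB2, PLXNB3, PLXND1, NRP1 and NRP2, out of 27546 gene symbols listed in the study's count tables, and all 10 were listed in each of the 3 tables. They were taken by name. PLXNA2 set the choice of the family: it was chosen by its higher level with every RIPK2 guide, so its values against control are given as a description with no test. The other members were tested. RIPK2 encodes a kinase that relays signals from the NOD receptors of innate immunity.

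Plexins are transmembrane receptors for semaphorins, a family of secreted and membrane-bound guidance cues. Neuropilins have a short cytoplasmic tail and serve as co-receptors: they bind class 3 semaphorins together with class A plexins, and they also bind VEGF together with its receptor kinases. In the cell, plexins act on small GTPases and through them on integrin adhesion and the actin cytoskeleton. Semaphorin receptors have been studied in prostate cancer for cell motility and invasion, PLXNB1 and NRP2 among them.

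RNA was sequenced from 27 libraries of 3 human prostate cancer cell lines. 22Rv1 was grown from a xenograft, and DU145 and PC3 from metastases. Each line has 3 groups of 3 libraries: the control genotype with control gRNA 1, and 2 populations labelled RIPK2 knockout. The knockout guides were gRNA 1 and gRNA 10 in 22Rv1, and gRNA 2 and gRNA 10 in DU145 and in PC3. The labels state neither how the populations were selected, as clones or as pools, nor whether the replicates are separate cultures, so p-values measure only the spread between these libraries, which may be technical. In bulk RNA, fewer cells of a type and less RNA per cell cannot be told apart.

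Libraries held 17958558 to 20650819 counts. RIPK2 itself fell in 22Rv1 from 15.8, 18.2 and 16.1 CPM (the library-scaled count, with TMM factors) in control cells to 9.42, 8.32 and 8.33 with gRNA 1 and to 5.58, 5.37 and 5.20 with gRNA 10. In DU145 it fell from 39.4, 44.4 and 43.5 to 9.87, 13.3 and 12.2 with gRNA 2. With DU145 gRNA 10 it stood at 36.4, 33.4 and 34.4 CPM, below each control library but not past the test (log2 fold change -0.29 ± 0.11 SE, edgeR adjusted p = 0.0614). In PC3 it fell from 59.5, 59.3 and 62.4 to 21.7, 20.1 and 20.1 with gRNA 2 and to 25.5, 28.3 and 27.8 with gRNA 10. An mRNA level does not show whether the protein was lost.

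Replicate 3 of 22Rv1 gRNA 1 and replicate 3 of DU145 gRNA 2 stood apart from the other libraries of their groups. Mitochondrial genes took 16.7% of the counts in the 22Rv1 library and 0.515% to 4.69% in the other 26. Its correlation with its replicates on the log2 CPM scale was 0.973 to 0.974, and for the DU145 library it was 0.978 to 0.982, where the other replicate pairs of these lines were at 0.993 or above. For part of the member results, values without these libraries are also given. The values of the semaphorin, VEGF, co-receptor and signalling lists are given only with them. The 4 epithelial markers EPCAM, KRT8, KRT18 and CDH1 were above 3 counts in every library, and their summed level ran from 734 to 876 CPM in control cells and was higher in every knockout library of the same line, up to 2816 in DU145 gRNA 2. In the endothelial list (PECAM1, CDH5, VWF, TEK, CLDN5) the summed level was at most 0.27 CPM in 22Rv1 and 1.70 CPM in DU145. In PC3 it ran from 1.80 to 2.34 CPM in control cells, from 8.80 to 10.1 with gRNA 2 and from 6.14 to 7.99 with gRNA 10. PECAM1 alone made up most of it, at 1.70 to 2.24, 8.75 to 9.71 and 5.85 to 7.75 CPM, while CDH5 reached at most 0.0985 CPM and VWF 0.0999 in PC3. The 6 fibroblast genes summed to 9.52 to 11.7 CPM in 22Rv1 control cells, 14.9 to 32.5 with gRNA 1 and 26.9 to 28.5 with gRNA 10, most of it COL1A1, and DCN stayed at or below 0.106 CPM. In DU145 they summed to 14.3 to 15.4, 5.86 to 12.5 (gRNA 2) and 25.0 to 31.4 CPM (gRNA 10), and in PC3 to 64.5 to 66.5, 55.4 to 66.3 and 70.2 to 73.9. The 5 leukocyte genes summed to at most 3.71 CPM. The part of these marker genes in the results was not tested.

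PLXNB2, a class B plexin that binds class 4 semaphorins, had nearly the same level in all 3 lines under the control guide, and it led the plexins of every line. Per kilobase of exon, PLXNB2 stood at 23.4 ± 3.36 CPM (22Rv1), 24.3 ± 1.21 (DU145) and 22.5 ± 0.66 (PC3) (mean ± SD, n = 3 each). NRP1 differed most between the lines. It was the 8th of 10 members by level in 22Rv1, at 0.350 ± 0.010 CPM per kilobase, the 2nd in DU145, at 8.80 ± 0.28, and the 1st in PC3, at 114 ± 3.61. PLXNA2 stood at 1.68 ± 0.12 CPM per kilobase in 22Rv1, 0.393 ± 0.030 in PC3 and 0.0479 ± 0.0045 in DU145, and NRP2 at 0.0629 ± 0.0057, 0.124 ± 0.012 and 0.128 ± 0.011 in 22Rv1, PC3 and DU145.

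**Figure D1:**
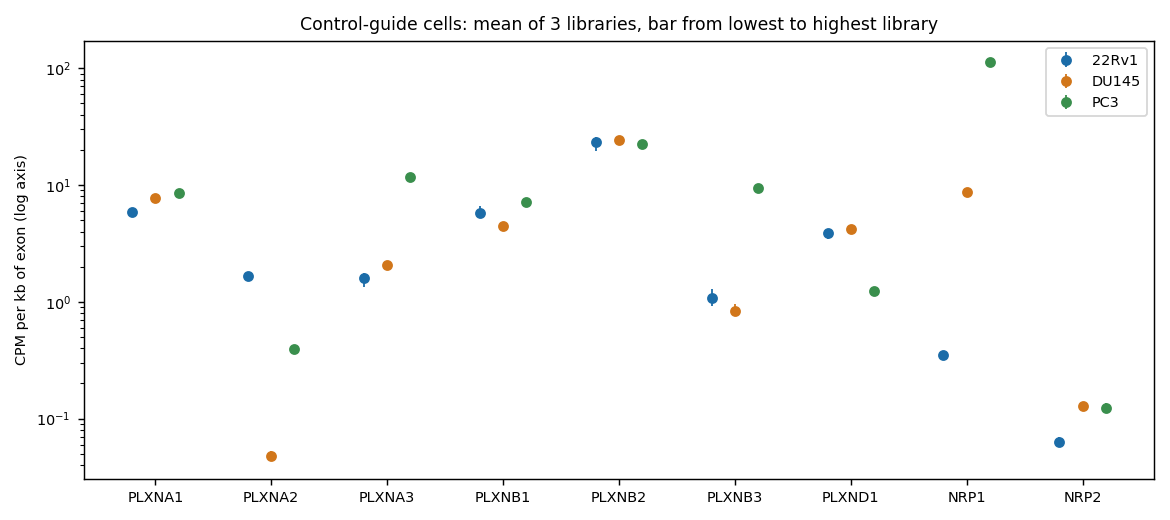
Level of 9 members in control-guide cells, in CPM per kilobase of exon on a log axis, as the mean of 3 libraries with a bar from the lowest to the highest library. PLXNB2 lies at 22.5 to 24.3 in all lines, while NRP1 runs from 0.350 in 22Rv1 to 114 in PC3.

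In 22Rv1 controls the order by level was PLXNB2, PLXNA1, PLXNB1, PLXND1, PLXNA2, PLXNA3, PLXNB3, NRP1, NRP2 and PLXNA4, where PLXNA1 and PLXNB1, and PLXNA2 and PLXNA3, overlapped in their ranges. In DU145 the order was PLXNB2, NRP1, PLXNA1, PLXNB1, PLXND1, PLXNA3, PLXNB3, NRP2, PLXNA2 and PLXNA4, where PLXNB1 and PLXND1 overlapped. In PC3 it was NRP1, PLXNB2, PLXNA3, PLXNB3, PLXNA1, PLXNB1, PLXND1, PLXNA2, NRP2 and PLXNA4, with no neighbours overlapping. Exon length here is the union of exons in the annotation, so a short main isoform would be set too low. With coding length NRP1 led in DU145 and PLXNB2 came next.

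Between control cells, 4 of 9 tested members differed between DU145 and 22Rv1, beside 75.9% of all genes. In PC3 against 22Rv1 it was 7 of 9, beside 80.5% of all genes, and in PC3 against DU145 it was 7 of 9, beside 75.9%. These counts include PLXNA2. Of the 8 others, 3 were higher and 0 lower in DU145 than in 22Rv1. In PC3, 5 were higher and 1 lower than in 22Rv1, and 5 higher and 1 lower than in DU145. With only the compared groups fitted, or without both libraries that stood apart, 7 of 9 differed between DU145 and 22Rv1, so these shares were near those of all genes or depended on the setting. NRP1 was 8.50 ± 0.115 log2 units higher in PC3 than in 22Rv1 (edgeR adjusted p = 3.52e-27). PLXNA2 was lower in DU145 than in 22Rv1 by 34.7-fold (log2 difference -5.12 ± 0.21). This is a description, since the control libraries also enter the changes that chose PLXNA2. PLXNB3 and PLXNA3, both on the X chromosome, were both higher in PC3 than in 22Rv1, by 3.28 ± 0.28 and 3.02 ± 0.24 log2 units (edgeR adjusted p = 5.19e-11 and 1.83e-11). PLXND1, a receptor for SEMA3E, was lower in PC3 than in 22Rv1 by a log2 difference of -1.50 ± 0.15 (edgeR adjusted p = 1.49e-09).

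PLXNA2 (ENSG00000076356.6, GRCh38 chr1:208022242-208244320, minus strand), a class A plexin that signals for class 3 and class 6 semaphorins, read 25.1, 21.9 and 22.4 CPM in 22Rv1 control cells, 42.6, 44.1 and 33.4 with gRNA 1, and 58.2, 55.8 and 54.8 with gRNA 10. In DU145 it read 0.624, 0.623 and 0.732 CPM in control cells (13, 13 and 15 counts), 1.79, 1.80 and 0.719 with gRNA 2 (36, 37 and 13 counts), and 8.36, 11.8 and 8.96 with gRNA 10. In PC3 it read 5.29, 5.87 and 5.07 CPM in control cells, 22.0, 24.6 and 21.6 with gRNA 2, and 17.9, 19.5 and 16.1 with gRNA 10. Every knockout library lay above all control libraries of its line except the DU145 gRNA 2 library that stood apart, which lay inside the control range.

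As log2 fold changes against control, PLXNA2 stood at 0.79 ± 0.12 and 1.28 ± 0.12 in 22Rv1 (gRNA 1, gRNA 10), 1.13 ± 0.36 and 3.87 ± 0.31 in DU145 (gRNA 2, gRNA 10), and 2.07 ± 0.09 and 1.72 ± 0.10 in PC3 (gRNA 2, gRNA 10). These 6 values chose the gene. Without the library that stood apart the DU145 gRNA 2 value was 1.44. The smallest of the 6, 0.79, was the 2nd largest such minimum of 12800 genes tested in all lines, after TRPV4 at 0.89 and before PEAR1 at 0.74. Over these genes, 0.125% passed the test upward in all 6 contrasts, and 2.91% had a fold change above 0 in all 6. The 2 contrasts of a line share their control libraries.

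Between the guides of a line, the PLXNA2 values are differences of those that chose the gene and are given with no test. The log2 difference was -0.49 ± 0.12 for gRNA 1 minus gRNA 10 in 22Rv1. For gRNA 2 minus gRNA 10 it was -2.74 ± 0.28 in DU145, 6.67-fold lower, and -2.43 without the library that stood apart. In PC3 it was 0.35 ± 0.07 for gRNA 2 minus gRNA 10. The log2 fold change of RIPK2 mRNA was -0.94 (gRNA 1) and -1.63 (gRNA 10) in 22Rv1, -1.84 (gRNA 2) and -0.29 (gRNA 10, not past the test) in DU145, and -1.55 (gRNA 2) and -1.15 (gRNA 10) in PC3. The guide with the larger PLXNA2 value had the lower RIPK2 level in 22Rv1 and PC3 and the higher RIPK2 level in DU145.

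**Figure D2:**
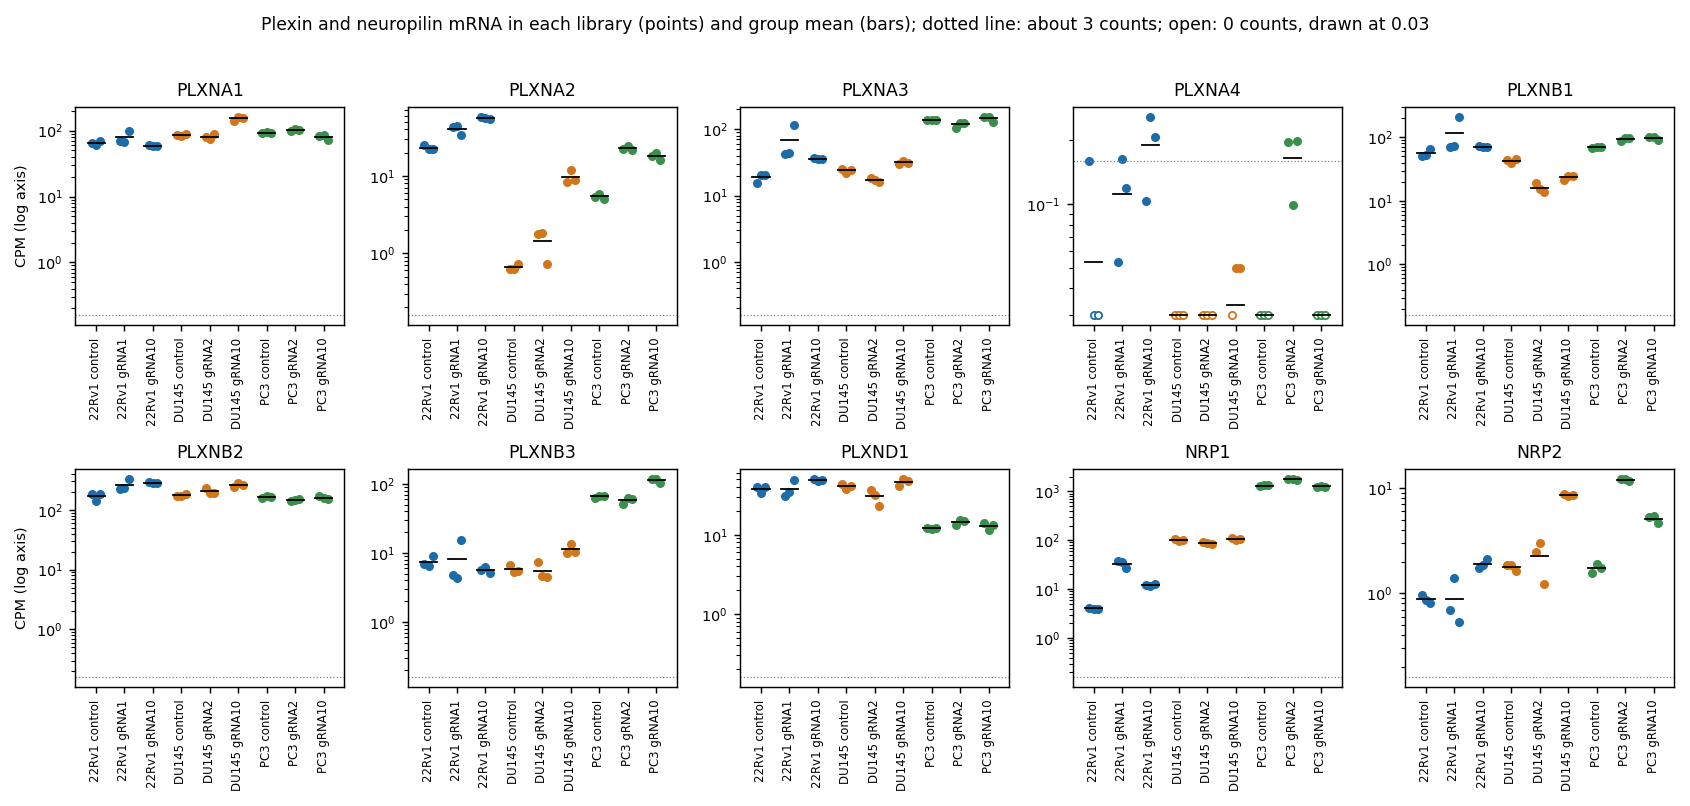
Level of each of the 10 members in each of 27 libraries, in CPM on a log axis whose range differs by panel, with group means as bars and libraries at 0 counts drawn open at 0.03. The PLXNA2 mean lies higher with each guide in each line, NRP2 most in DU145 gRNA 10 and both PC3 guides, and PLXNA4 stays at 0 to 5 counts.

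Against control, 4 of the 8 other tested members rose and 0 fell with gRNA 1 in 22Rv1, where 25.6% of all genes rose and 22.9% fell. With gRNA 10 in 22Rv1, 4 rose and 0 fell, beside 20.0% and 20.6% of all genes. In DU145, 0 rose and 2 fell with gRNA 2, beside 17.1% and 17.0%, which is near the background. With gRNA 10 in DU145, 5 rose and 1 fell, beside 20.2% and 19.8%. In PC3, 5 rose and 2 fell with gRNA 2, beside 32.1% and 31.5%, and 3 rose and 1 fell with gRNA 10, beside 37.9% and 35.6%. Without the 22Rv1 library that stood apart, 7 passed with 22Rv1 gRNA 10, of which PLXNB3 was lower (-0.38, edgeR adjusted p = 0.0394) and the others higher, while genes called in all went from 6169 to 8971. Without the DU145 library, 4 passed with DU145 gRNA 2, PLXNB2 and NRP2 higher and PLXNA3 and PLXNB1 lower, while genes called in all went from 5072 to 6957. The medians of the 8 log2 fold changes were 0.46 and 0.56 (22Rv1), -0.14 and 0.49 (DU145) and 0.19 and 0.093 (PC3), and that of all genes was at most 0.024.

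**Figure D3:**
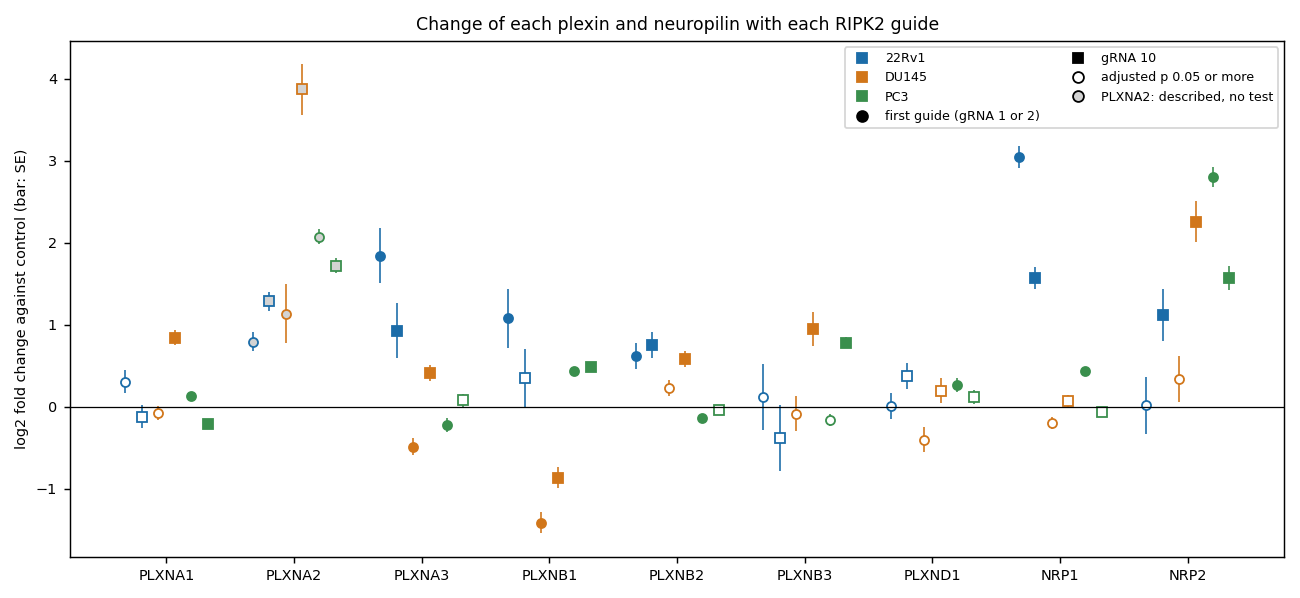
Log2 fold change against control with its standard error for 9 members and 6 guide contrasts, where filled symbols passed the test, open symbols did not, and the grey PLXNA2 symbols carry no test. PLXNA2 lies above 0 in all 6 contrasts, while PLXNB1 lies above 0 in 22Rv1 and PC3 and below 0 in DU145.

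NRP2 (ENSG00000118257.16, chr2:205681990-205798133), the co-receptor that binds SEMA3F and VEGFC, rose in 4 of the 6 contrasts. In PC3 it read 1.55, 1.89 and 1.74 CPM in control cells, 12.2, 12.2 and 11.7 with gRNA 2, and 5.27, 5.44 and 4.66 with gRNA 10. The groups did not overlap, and the log2 fold changes were 2.80 ± 0.12 (edgeR adjusted p = 2.30e-18) and 1.57 ± 0.15 (6.30e-11). In DU145 it read 1.87, 1.87 and 1.61 CPM in control cells, 2.48, 3.02 and 1.22 with gRNA 2, and 8.81, 8.33 and 8.51 with gRNA 10.

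In DU145 the rise with gRNA 10 was 2.26 ± 0.25 log2 units (edgeR adjusted p = 8.21e-05), and the gRNA 2 value of 0.34 ± 0.28 did not pass (0.374). Without the library that stood apart, NRP2 passed with gRNA 2 at 0.63 (edgeR adjusted p = 0.0101). In 22Rv1 it read 0.960, 0.860 and 0.804 CPM (18, 16 and 15 counts) in control cells, 0.692, 1.41 and 0.535 with gRNA 1 (13, 26 and 9 counts), and 1.76, 1.86 and 2.11 with gRNA 10 (34, 36 and 41 counts). The rise with gRNA 10 was 1.12 ± 0.32 (edgeR adjusted p = 0.0159), and its adjusted p lay between 0.0533 and 0.0592 without control replicate 2, control replicate 3 or gRNA 10 replicate 3. The gRNA 1 value was 0.013 ± 0.35.

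Over the 27 libraries, with each gene's log2(CPM + 0.5) centred on the mean of its line, NRP2 was the gene most like PLXNA2 of 12799 compared, with Pearson r = 0.91 and Spearman rho = 0.94, as a description. Within lines, over 9 libraries each, r was 0.72 (22Rv1), 0.98 (DU145) and 0.95 (PC3). The libraries of a line share their groups and depth, so these points are not independent. The shifts against control that chose PLXNA2 also enter these correlations, which therefore in part restate that NRP2 rose against control. Next came MDGA1 (r = 0.91), ANKRD33B (0.89), SMIM10L2A (0.88) and SLC4A8 (0.87). The other members were far down the order, from PLXNA1 at r = 0.58 and rank 440 to PLXNB1 at r = 0.0021 and rank 6273.

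**Figure D4:**
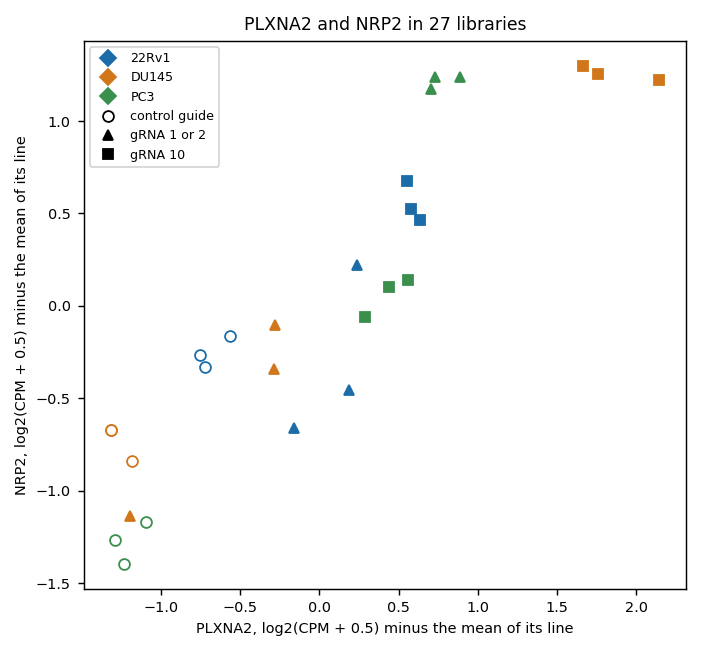
PLXNA2 against NRP2 in 27 libraries, each as log2(CPM + 0.5) minus the mean of its line, with open circles for control cells. Control libraries lie at the lower left and DU145 gRNA 10 libraries at the upper right, and 1 DU145 gRNA 2 library lies among the controls.

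The 250 bases before the RefSeq start of PLXNA2 and NRP2 are shown because NRP2 was the gene most like PLXNA2. RefSeq promoters (GRCh38.p14) matched 9 of the 10 members. Capitals mark GGGCGG, the GC box, on either strand, and in NRP2 a pair of matches shares a base. The PLXNA2 window is chr1:208244385-208244634 on the minus strand and the NRP2 window is chr2:205682251-205682500 on the plus strand. RefSeq and GENCODE 29 place the starts differently, and the NRP2 window lies inside the GENCODE gene span given above.
PLXNA2: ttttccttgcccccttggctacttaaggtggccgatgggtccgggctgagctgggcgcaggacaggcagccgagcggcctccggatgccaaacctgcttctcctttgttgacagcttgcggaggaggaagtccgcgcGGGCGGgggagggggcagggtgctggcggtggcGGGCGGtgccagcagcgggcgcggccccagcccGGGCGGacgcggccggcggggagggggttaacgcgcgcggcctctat
NRP2: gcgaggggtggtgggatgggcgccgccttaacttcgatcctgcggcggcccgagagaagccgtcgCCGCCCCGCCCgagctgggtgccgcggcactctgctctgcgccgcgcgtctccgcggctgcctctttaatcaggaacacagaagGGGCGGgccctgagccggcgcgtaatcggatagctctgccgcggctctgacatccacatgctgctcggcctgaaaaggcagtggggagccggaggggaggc

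Each window held 3 GC boxes, and 42.6% of 35116 promoter windows of this length held at least 1. Neither held TGACTCA (the AP-1 motif) or CACGTG (the E-box), searched on both strands, which 4.2% and 6.34% of all windows held. A match is a run of letters, not a site in use.

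NRP1 (ENSG00000099250.17, chr10:33177492-33336262), the co-receptor of SEMA3A and VEGFA, rose most in 22Rv1, the line where its control level was lowest. It read 4.16, 3.92 and 4.02 CPM in control cells, 37.2, 35.2 and 27.5 with gRNA 1, and 11.9, 11.5 and 12.5 with gRNA 10. The rises were 3.04 ± 0.14 log2 units, 8.25-fold (edgeR adjusted p = 6.90e-08), and 1.57 ± 0.14, 2.96-fold (9.24e-06). In PC3 it read 1267, 1337 and 1340.05 CPM in control cells, 1796, 1798 and 1719.5 with gRNA 2, and 1235, 1303 and 1240.4 with gRNA 10.

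In PC3, NRP1 rose by 0.43 ± 0.03 with gRNA 2 (edgeR adjusted p = 3.43e-12), and the gRNA 10 groups overlapped with control. In DU145 it ran from 97.9 to 104 CPM in control cells, from 85.2 to 91.4 with gRNA 2 and from 103 to 112 with gRNA 10, and neither guide passed. An antisense gene shares 561 exon bases with NRP1 in the annotation, and another shares 147 with NRP2. PLXNA3 shares 11 with LAGE3 on the opposite strand. The strand setting of the counting is not given in the sources used here.

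Among the class A plexins, PLXNA3, which pairs with neuropilins for SEMA3F, read 15.7, 20.5 and 20.5 CPM in 22Rv1 control cells, 42.8, 43.9 and 117 with gRNA 1, and 36.6, 35.9 and 35.1 with gRNA 10. Every knockout library lay above the controls, and the highest value was that of the library that stood apart. The rise with gRNA 1 was 1.84 ± 0.34 log2 units (edgeR adjusted p = 0.00126) and 1.19 without that library (8.74e-07). The rise with gRNA 10 was 0.92 ± 0.33 (0.0475), which did not pass when a single control or gRNA 10 library was dropped (0.0877 to 0.145) and passed without gRNA 1 replicate 3 (0.93, 3.18e-06). PLXNA3 fell with DU145 gRNA 2 by 0.49 on the log2 scale (edgeR adjusted p = 0.00433) and rose with DU145 gRNA 10 by 0.40 (0.00805).

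In PC3, PLXNA3 was at -0.23 ± 0.08 log2 units with gRNA 2 (edgeR adjusted p = 0.0363), which no longer passed without any 1 of the control libraries, and at 0.07 ± 0.08 with gRNA 10 (0.431). PLXNA1, a receptor for class 3 and class 6 semaphorins, read 85.4, 82.6 and 88.6 CPM in DU145 control cells and 139.6, 163 and 156 with gRNA 10. That rise was 0.84 ± 0.09 log2 units (edgeR adjusted p = 5.69e-05). In PC3 it rose with gRNA 2 by 0.13 ± 0.05 (0.0263, not passing without control replicate 1, control replicate 3 or gRNA 2 replicate 2) and fell with gRNA 10 by 0.22 (0.000341). PLXNA4 held 0 to 5 counts in every library and was tested in no line. Where it is at 0, the total allows up to 3 counts, 0.144 to 0.178 CPM.

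Among the class B plexins, PLXNB1, the receptor of SEMA4D, moved in opposite directions in different lines. In DU145 it read 43.4, 39.6 and 46.0 CPM in control cells, 18.9, 15.5 and 13.8 with gRNA 2, and 20.9, 24.8 and 25.0 with gRNA 10. The groups did not overlap, and it fell by 1.42 and 0.87 on the log2 scale (edgeR adjusted p = 4.27e-05 and 0.000422). In PC3 it read 67.2, 71.2 and 71.4 CPM in control cells, 88.6, 95.9 and 97.6 with gRNA 2, and 101, 102 and 90.2 with gRNA 10, rising by 0.43 ± 0.05 and 0.48 ± 0.05 (edgeR adjusted p = 9.55e-09 and 5.24e-10).

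In 22Rv1, PLXNB1 read 50.9, 52.2 and 64.6 CPM in control cells, 70.0, 71.9 and 211 with gRNA 1, and 72.5, 71.5 and 70.2 with gRNA 10. The gRNA 1 rise of 1.07 ± 0.35 (edgeR adjusted p = 0.028) became 0.33 (0.0118) without the library that stood apart, and it did not pass with no filter on low counts (0.142), with only the compared groups fitted (0.0631) or without control replicate 1 or 2 (0.0884 and 0.104). The gRNA 10 value of 0.35 ± 0.35 did not pass (0.455) and passed without that library (0.36, 0.00382).

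PLXNB2 rose in 22Rv1 from 187, 142 and 181 CPM to 221, 229 and 330.0 with gRNA 1 (0.61 ± 0.16 log2 units, edgeR adjusted p = 0.00817, and 0.39 at 0.00482 without the library that stood apart) and to 294, 282 and 283 with gRNA 10 (0.75 ± 0.16, 0.00304). It rose with DU145 gRNA 10 by 0.58 ± 0.10 (0.00118) and fell with PC3 gRNA 2 by 0.14 (0.00371). PLXNB3, a receptor for SEMA5A, rose with gRNA 10 in DU145 by 0.95 ± 0.21 (edgeR adjusted p = 0.00452) and in PC3 by 0.78 ± 0.07 (1.16e-07), from 62.4, 67.5 and 67.3 CPM to 118, 118 and 102 in PC3. With gRNA 1 in 22Rv1, PLXNB3 read 4.79, 4.32 and 15.3 CPM against 6.88, 6.51 and 9.11 in control cells, so that its value was 0.11 ± 0.40 (0.835) with the library that stood apart and -0.73 (0.00295) without it. PLXNB3 shares 1432 exon bases with SRPK3 on the same strand, so its counts are uncertain.

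PLXND1 passed in 1 contrast, PC3 gRNA 2, where it rose from 12.2, 11.7 and 12.1 CPM to 13.2, 15.1 and 14.9 (0.26 ± 0.08 log2 units, edgeR adjusted p = 0.00732). In 22Rv1 gRNA 10 it read 50.7, 47.0 and 49.2 CPM against 39.8, 33.6 and 40.2, which did not pass (0.37 ± 0.16, 0.09) and passed without the library that stood apart (0.38, 0.00257). PLXNC1, a plexin outside the list that binds SEMA7A, rose with PC3 gRNA 2 from 0.649, 0.647 and 1.34 CPM to 5.96, 7.05 and 6.38 (2.87 ± 0.20, 1.34e-13). With PC3 gRNA 10 it stood at 0.725, 0.674 and 0.336 CPM, which did not pass (-0.60 ± 0.34, 0.111). PLXNC1 was instead lower under each 22Rv1 guide, by a log2 fold change of -0.90 ± 0.22 for gRNA 1 (edgeR adjusted p = 0.00639) and -0.82 ± 0.22 for gRNA 10 (0.0113). Its DU145 values were negative too, at -0.54 ± 0.35 (gRNA 2, 0.262) and -0.69 ± 0.35 (gRNA 10, 0.147), but neither passed.

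Leaving PLXNA2 aside, all 8 tested members were lower with gRNA 2 than with gRNA 10 in DU145, beside 19.6% of all genes lower and 19.2% higher. Each of the 8 also passed without the DU145 library that stood apart, where genes called in all went from 5789 to 7266. PLXNB2 did not pass with only the compared groups fitted (edgeR adjusted p = 0.0567) or without gRNA 10 replicate 2 or 3 (0.0748 and 0.0570). NRP1 did not pass with no filter on low counts (0.0638), with only the compared groups fitted (0.0639) or without gRNA 10 replicate 1 (0.0653). In 22Rv1, 3 of the 8 were higher (PLXNA1, PLXNA3 and NRP1) and 1 lower (NRP2) with gRNA 1 than with gRNA 10, beside 18.8% and 16.8%. Of these, PLXNA3 went from 0.92 to 0.26 log2 units (edgeR adjusted p = 0.0545) without the 22Rv1 library that stood apart, where PLXNB2 and PLXND1 passed as lower. With only the compared groups fitted, NRP1 alone of the 8 passed, and the same held without gRNA 10 replicate 2 or 3. In PC3, 3 of the 8 were higher and 3 lower with gRNA 2 than with gRNA 10, beside 36.5% and 36.9%. The PC3 differences ran from -0.95 ± 0.07 for PLXNB3 (edgeR adjusted p = 1.38e-08) to 1.23 ± 0.10 for NRP2 (1.26e-12).

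The mean effect of both guides differed between DU145 and 22Rv1 for 3 of 8 tested members (NRP1, PLXNA3 and PLXNB1), beside 47.1% of all genes. Between PC3 and 22Rv1 it differed for 4 of 8 (NRP1, NRP2, PLXNA3 and PLXNB2), beside 45.3%, and between PC3 and DU145 for 4 of 8 (NRP2, PLXNA1, PLXNB1 and PLXNB2), beside 42.2%. These shares are near the background. Without both libraries that stood apart it was 6 of 8 between DU145 and 22Rv1, while genes called in all went from 7687 to 9171. The NRP1 effect was lower in DU145 and in PC3 than in 22Rv1 (log2 differences -2.37 ± 0.12 and -2.14 ± 0.12, edgeR adjusted p = 9.42e-15 and 5.10e-14). The PLXNB1 effect was higher in PC3 than in DU145 by 1.58 ± 0.31 (0.000212). As a description, the PLXNA2 effect was 1.47 ± 0.27 higher in DU145 and 0.84 ± 0.185 higher in PC3 than in 22Rv1. 22Rv1 had gRNA 1 where DU145 and PC3 had gRNA 2, so line and guide cannot be told apart in comparisons with 22Rv1. The mean can also join opposite changes, as for PLXNA3 in DU145 (-0.49 with gRNA 2 and 0.40 with gRNA 10).

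Of 20 semaphorins, the ligands, 7 rose and 3 fell with gRNA 1 in 22Rv1 (17 tested), 4 rose and 4 fell with gRNA 10, 3 rose and 5 fell with gRNA 2 in DU145 (18 tested), 5 rose and 5 fell with gRNA 10, 9 rose and 1 fell with gRNA 2 in PC3 (16 tested), and 7 rose and 5 fell with gRNA 10. Over all genes in the same contrasts, 25.6% rose and 22.9% fell, 20.0% and 20.6%, 17.1% and 17.0%, 20.2% and 19.8%, 32.1% and 31.5%, and 37.9% and 35.6%, with medians of at most 0.024. The median semaphorin log2 fold changes were 0.44, 0.071, -0.35, 0.15, 0.22 and -0.077 in that order. SEMA3C, a secreted ligand of neuropilins and class A plexins, rose with both guides in 22Rv1, from 4.16 to 5.57 CPM in control cells to 49.3 to 92.0 with gRNA 1 and 60.3 to 64.1 with gRNA 10. In log2 units the rises were 3.90 ± 0.23 and 3.63 ± 0.23 (edgeR adjusted p = 4.09e-07 and 6.40e-07). It rose in PC3 by 1.91 ± 0.07 and 1.82 ± 0.07 (3.91e-20 and 5.46e-20), and in DU145 it stood at 0.17 ± 0.11 with gRNA 2 (0.264) and fell by 0.44 with gRNA 10 (0.0104).

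SEMA3F, the NRP2 ligand, rose in PC3 from 52.0 to 55.5 CPM in control cells to 177 to 185 with gRNA 2 and 308 to 321 with gRNA 10 (1.76 ± 0.04 and 2.55 ± 0.04 log2 units, edgeR adjusted p = 1.09e-25 and 4.02e-30). It fell in 22Rv1 by 1.46 and 1.34 (0.006 and 0.0103). SEMA3D fell in PC3 with gRNA 10 from 49.2 to 59.5 CPM to 3.03 to 3.90 (log2 fold change -4.02 ± 0.10, 1.38e-21) and rose with gRNA 2 by 0.86 ± 0.06 (2.24e-12). SEMA3E, the PLXND1 ligand, fell with DU145 gRNA 2 from 5.14 to 6.15 CPM to 0.0553 to 0.438 (-4.52 ± 0.36, 1.76e-05) and rose in 22Rv1 by 2.51 ± 0.30 and 2.02 ± 0.30 (6.63e-05 and 0.000346).

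Of the other DU145 ligands, SEMA3G fell with gRNA 2 (-3.40 ± 0.30 log2 units, edgeR adjusted p = 3.33e-05) and SEMA7A, the PLXNC1 ligand, rose with gRNA 2 by 1.46 ± 0.10 (6.23e-06). SEMA6A and SEMA3A rose with gRNA 10 by 2.12 ± 0.21 and 1.70 ± 0.20 (4.12e-05 and 0.000109). Among VEGF ligands and receptors (8 genes, 6 or 7 tested), KDR, the main VEGFA receptor kinase, rose in PC3 from 1.14 to 1.39 CPM to 12.6 to 13.5 with gRNA 2 and 41.4 to 45.2 with gRNA 10 (3.35 ± 0.13 and 5.10 ± 0.10, edgeR adjusted p = 4.88e-20 and 9.73e-28). FLT1 fell there by 1.59 and 3.17 (9.76e-14 and 5.84e-19). PECAM1 rose in the same PC3 groups while CDH5 and VWF stayed near 0, as given above. Of the VEGF genes, 2 rose and 1 fell, 4 and 0, 2 and 1, 3 and 3, 2 and 3, and 3 and 2 in the 6 contrasts in the order above, with medians of 0.52, 0.92, 0.12, -0.34, 0.049 and 0.38, beside 17.0% to 37.9% of all genes in each direction.

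Of 10 co-receptors and partners, 10 were tested in 22Rv1, 9 in DU145 and 8 in PC3. In the same order, 3 rose and 2 fell, 2 and 3, 1 and 3, 4 and 2, 2 and 5, and 6 and 2. These counts stand beside the same shares of all genes. The medians were -0.084, -0.15, -0.16, 0.26, -0.14 and 0.33. MET, the receptor kinase that can join plexin B1, fell in 22Rv1 from 450.2 to 486 CPM in control cells to 52.2 to 93.5 with gRNA 1 and 16.3 to 18.5 with gRNA 10 (in log2 units -2.83 ± 0.20 and -4.77 ± 0.22, edgeR adjusted p = 1.92e-06 and 8.98e-08). It fell in PC3 by 0.55 and 1.05 (5.83e-11 and 1.10e-16) and rose in DU145 by 1.43 ± 0.09 and 0.26 ± 0.09 (4.53e-06 and 0.0397). NRCAM rose in 22Rv1 by 2.61 ± 0.11 and 2.57 ± 0.11 (4.48e-08 and 5.58e-08). PTK7 rose with both guides in 22Rv1 (1.89 ± 0.24 and 2.14 ± 0.24) and in PC3 (0.30 ± 0.04 and 0.78 ± 0.04). L1CAM, an NRP1 partner, rose with DU145 gRNA 10 by 1.60 ± 0.29 (edgeR adjusted p = 0.00149).

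Of 28 genes of plexin signalling, 11 rose and 5 fell with gRNA 1 in 22Rv1, 9 and 5 with gRNA 10, 0 and 7 with gRNA 2 in DU145, 4 and 6 with gRNA 10, 11 and 9 with gRNA 2 in PC3, and 14 and 8 with gRNA 10. All 28 were tested in 22Rv1, 26 in DU145 and 27 in PC3. The medians were 0.055, 0.22, -0.16, 0.013, 0.10 and 0.12. The PC3 counts stand beside 32.1% and 31.5% of all genes with gRNA 2 and 37.9% and 35.6% with gRNA 10. The others stand beside the shares given for the semaphorins. MICAL2, an oxidoreductase that acts on actin, rose with both guides in 22Rv1 (0.52 ± 0.12 and 0.85 ± 0.12 log2 units) and PC3 (0.45 ± 0.05 and 0.21 ± 0.05) and fell with both in DU145, by 0.32 and 1.05 (edgeR adjusted p from 0.00764 to 1.19e-09 over the 6).

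PLXNA2 lies on the long arm of chromosome 1, and its 20 nearest tested genes were set beside it. In PC3, 15 of the 20 rose and 3 fell with gRNA 2 (median log2 fold change 0.65), and 11 rose and 5 fell with gRNA 10 (median 0.28), where the median of all genes was 0.0059 and 0.0084 and 32.1% and 37.9% of all genes rose and 31.5% and 35.6% fell. Genes that rose by more than 1 log2 unit with both guides lay on 1 side, 1.56 to 2.21 Mb away, among them CAMK1G (5.43 and 1.94), LAMB3 (4.05 and 1.21), G0S2 (3.89 and 1.06), SERTAD4 (2.14 and 4.11) and its antisense gene SERTAD4-AS1 (2.96 and 4.46), whose reads may not be separable. On the other side, CD55 fell by 1.65 and 1.88, 0.70 Mb away. These named genes were chosen after their values were seen. In 22Rv1, 5 of the 20 rose and 5 fell with gRNA 1 (median -0.020), and 2 rose and 7 fell with gRNA 10 (median -0.15). In DU145, 8 rose and 2 fell with gRNA 2 (median 0.27), and 5 rose and 4 fell with gRNA 10 (median -0.091). In these lines 17.0% to 25.6% of all genes passed in each direction. LAMB3 rose there too, by 3.33 and 3.00 in 22Rv1 and by 1.06 and 0.64 in DU145. SERTAD4 was at 1.49 and -2.64 in 22Rv1 and at 1.79 and 1.24 in DU145. With the 5 nearest genes on each side, the DU145 gRNA 10 median turned to 0.13 and the 22Rv1 gRNA 10 median was -0.042.

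**Figure D5:**
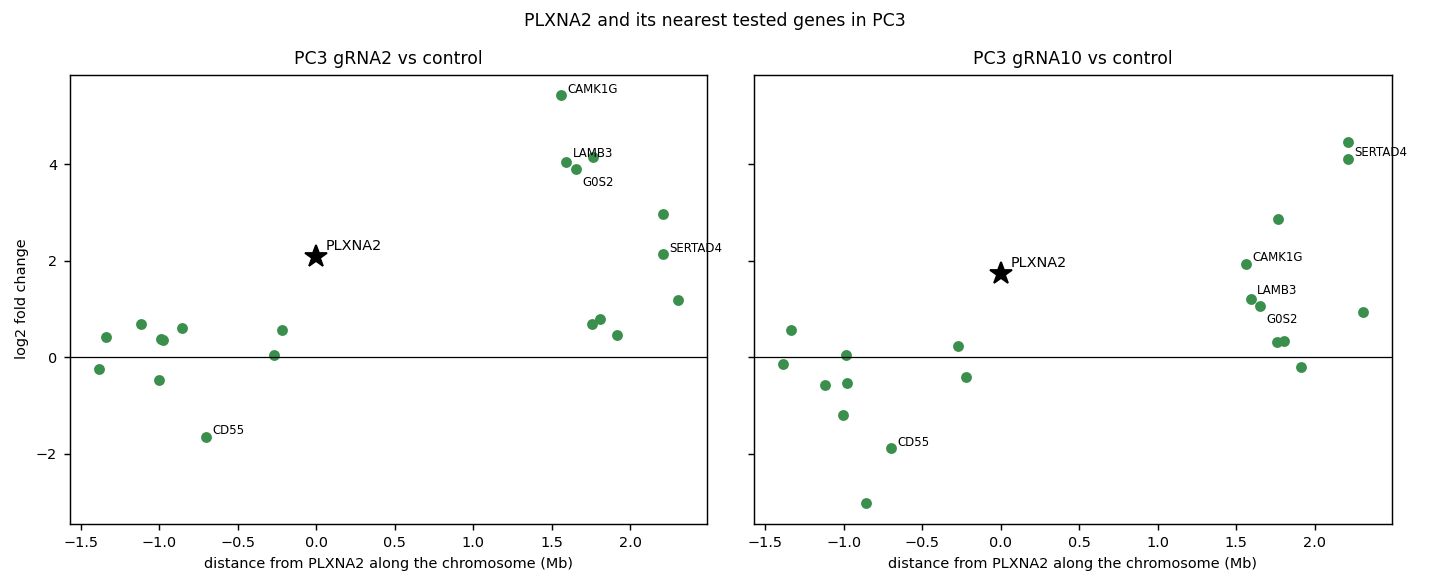
Log2 fold change of PLXNA2 (star) and its 20 nearest tested genes in PC3 against their distance in Mb, for gRNA 2 and gRNA 10. The genes 1.56 Mb and more to the right lie above 0 except SYT14 with gRNA 10, while CD55 lies below 0 with both guides.

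PLXNB1 lies on the short arm of chromosome 3. In 22Rv1, 0 of its 20 nearest tested genes rose and 12 fell with gRNA 1 (median -0.39), and 1 rose and 11 fell with gRNA 10 (median -0.41), while PLXNB1 itself was at 1.07 and 0.35. In DU145, 0 rose and 12 fell with gRNA 2 (median -0.36) and 0 rose and 13 fell with gRNA 10 (median -0.39), beside -1.42 and -0.87 for PLXNB1. In PC3, 17 rose and 1 fell with gRNA 2 (median 0.40), and 13 rose and 3 fell with gRNA 10 (median 0.25). Around NRP2 in PC3, 2 of 20 rose and 14 fell with gRNA 2, and 4 rose and 8 fell with gRNA 10, while NRP2 rose. Around PLXNA3, 18 of 20 rose and 1 fell with PC3 gRNA 10. Around PLXNA1 in 22Rv1, 1 rose and 16 fell with gRNA 1, and 2 rose and 16 fell with gRNA 10. Around PLXND1, 2 rose and 16 fell with PC3 gRNA 10. Some of the other counts were as uneven. With 22Rv1 gRNA 1, 14 rose and 0 fell around PLXNB2 (median 0.67, PLXNB2 itself 0.61). With DU145 gRNA 10, 11 rose and 0 fell around PLXNB3 (median 0.51, PLXNB3 itself 0.95). Of the PLXND1 neighbours, 0 rose and 12 fell with 22Rv1 gRNA 10 and again with PC3 gRNA 2. Others were more even, such as 3 rising and 2 falling around PLXNB2 with DU145 gRNA 2. Beside these counts, 32.1% of all genes rose and 31.5% fell with PC3 gRNA 2, and 37.9% and 35.6% with gRNA 10, and in 22Rv1 and DU145 17.0% to 25.6% did so in each direction. The median of all genes was at most 0.024 in each contrast.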

How the data were processed

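RNA from control-guide and RIPK2-guide cells of 22Rv1, DU145 and PC3 was sequenced as strand-specific mRNA libraries, per the labels' protocols. The authors deposited raw read counts per gene symbol, 1 table per line, per the file headers. FastQC, STAR, edgeR and hg38 are named in the submitters' processing notes, with no role stated for each. The counting program, its strand setting and the annotation are not given in the sources used here. Columns were matched to samples by library name and groups were taken from the titles.

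Counts were tested with edgeR 4.0.16 in R 4.3.3: TMM factors (0.902 to 1.04), filterByExpr (minimum count 10, minimum total 15), robust quasi-likelihood fits and two-sided F tests. Each line's 9 libraries made 1 fit (15198, 14908 and 14718 genes in 22Rv1, DU145 and PC3). Comparisons between lines used 1 model of all 27 libraries (16322 genes). A gene rose or fell where its Benjamini-Hochberg adjusted p over all genes tested was below 0.05. Standard errors were derived from the F statistic. A count of 0 allows up to 3 counts, and such limits cover counting error only. The fits were tested on simulated data.

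Exon lengths and positions came from GENCODE 29 (GRCh38). The alternatives were RLE factors, DESeq2 1.42.0, no filter, only the compared groups, a replicate block and each library left out, and, chosen after seeing the data, coding length and both libraries that stand apart left out. The members, the lists and the tests were chosen with earlier results of these data known. Named genes were the members, PLXNC1, RIPK2, the 5 genes most like PLXNA2, list genes changed the same way by both guides in at least 2 lines with a mean of 100 counts, and up to 3 list genes per contrast with the largest change. Some genes are not reported here.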

Additional observations from a re-analysis of the deposited data

Results flagged for a closer look

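The effect of the RIPK2 guides (mean of both guides against control, log2) differed between lines by the test of the difference itself, in the edgeR model of all 27 libraries, for the members below. In DU145 minus 22Rv1 the difference was -2.37 ± 0.12 (SE) for NRP1, -1.42 ± 0.29 for PLXNA3 and -1.86 ± 0.31 for PLXNB1 (adjusted p = 9.42e-15, 0.000245 and 2.74e-05). In PC3 minus 22Rv1 it was -2.14 ± 0.12 for NRP1, 1.60 ± 0.34 for NRP2, -1.48 ± 0.28 for PLXNA3 and -0.79 ± 0.15 for PLXNB2 (5.10e-14, 0.000379, 0.000111 and 7.51e-05). In PC3 minus DU145 it was 0.87 ± 0.28 for NRP2, -0.44 ± 0.13 for PLXNA1, 1.58 ± 0.31 for PLXNB1 and -0.51 ± 0.15 for PLXNB2 (0.0159, 0.00795, 0.000212 and 0.00638). With both libraries that stand apart left out, the DU145 minus 22Rv1 differences were -2.40 for NRP1, -1.06 for PLXNA3 and -1.43 for PLXNB1, and all of these passed. 22Rv1 had gRNA 1 where DU145 and PC3 had gRNA 2, so line and guide cannot be told apart in comparisons with 22Rv1.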

How the results depend on the processing

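For 22Rv1 gRNA 1 against gRNA 10 with only the compared groups fitted, NRP1 alone of 8 members passed, PLXNA2 left aside. In the main fit 3 of the 8 were higher and 1 lower. With only the compared groups fitted, members called (PLXNA2 included) were 7 in place of 4 for the control level of DU145 minus 22Rv1. Genes called were 3335 in place of 5072 for DU145 gRNA 2 and 9749 in place of 5956 for DU145 gRNA 10 against control. With DESeq2, 4 members in place of 2 were called for DU145 gRNA 2. With both libraries that stand apart left out, 6 in place of 3 were called for the knockout effect of DU145 minus 22Rv1 and 7 in place of 4 for their control level, and the knockout effect of PC3 minus 22Rv1 turned to 0.11 for PLXNB1 and 0.12 for PLXND1. With no filter, 22Rv1 gRNA 1 against control turned to -0.052 for PLXND1 and -0.038 for NRP2. The causes were not tested.

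Leaving out 1 library at a time, members called ran from 2 to 7 (22Rv1 gRNA 10), 2 to 4 (DU145 gRNA 2) and 3 to 5 (knockout effect, DU145 minus 22Rv1), and genes called for DU145 gRNA 2 from 3259 to 6957. The 7 came without gRNA 1 replicate 3. In 22Rv1 gRNA 1 against control, PLXNB3 ran from -0.73 to 0.41, PLXND1 from -0.24 to 0.14 and NRP2 from -0.50 to 0.25. Against gRNA 10, PLXNB1 ran from -0.024 to 0.98 and PLXNB3 from -0.35 to 0.80. PLXNB3 in DU145 gRNA 2 ran from -0.35 to 0.036. The knockout effect of PC3 minus 22Rv1 ran from -0.41 to 0.084 for PLXNB1 and -0.089 to 0.095 for PLXND1, and that of PC3 minus DU145 from -0.086 to 0.012 for PLXNA3. The PLXNB2 control level ran from -0.062 to 0.14 for DU145 minus 22Rv1 and -0.022 to 0.18 for PC3 minus 22Rv1.

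Replicates were numbered by title. The library names carry other numbers for some libraries of 22Rv1 gRNA 1, DU145 gRNA 2, PC3 control and PC3 gRNA 2. Of 27 pairs with the same title number, 5 had deviations correlated above 0.1 (range -0.27 to 0.41). Pairing by library number was not tested, so the check cannot decide whether samples are paired. With the replicate block, 22Rv1 gRNA 1 against control turned to -0.010 for PLXNB3, -0.0091 for PLXND1 and -0.014 for NRP2, the members called were 4 in place of 3 for the knockout effect of DU145 minus 22Rv1 and 8 in place of 7 for the control level of PC3 minus 22Rv1, and PLXNA3 in PC3 gRNA 2 did not pass (edgeR adjusted p = 0.0674).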
